A study of Canis lupus familiaris with 8 samples.

Results

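SOST, FGF23, PHEX and PDPN are 4 genes by which osteocytes, the cells buried in mineralised bone, are recognised. They were followed here in dog maxillary alveolar bone, the part of the upper jaw that holds the tooth roots. The genes were chosen by name. Each was read by 1 probe set, the probes that together report 1 transcript on the array, with a single gene symbol in the platform annotation, and all 4 were found among 15947 measured genes. Total RNA from 8 samples was measured on 8 Affymetrix whole-transcript arrays, with 2 arrays in each of 4 groups. In D2 and D6, new tissue that had filled a surgical defect by the root of the second premolar was taken along with the bone next to it, 2 and 6 weeks after surgery, as the digit in the group name was read. In DT6 the sample was of that kind, at 6 weeks, from a defect with protraction, the forward movement of a tooth. C was sound bone around premolar roots. The labels used here give no breed, age or sex, do not say which dog gave which array, and do not say how much old bone went into a defect sample. The spread behind each p-value is thus that between arrays, and part or all of it may be technical.

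Osteocytes arise from osteoblasts that the new matrix encloses, and they communicate with cells at the bone surface through dendrites in fine canals. PDPN encodes podoplanin, a membrane glycoprotein that appears early, as the cell is being embedded and extends dendrites. PHEX encodes a membrane endopeptidase whose loss in people causes X-linked hypophosphatemia. SOST encodes sclerostin, a secreted inhibitor that binds the Wnt coreceptors LRP5 and LRP6 and restrains bone formation, and it is made mainly by mature osteocytes. FGF23 encodes a hormone of bone that makes the kidney excrete phosphate. In rodents, mechanical loading lowers sclerostin in osteocytes.

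The 4 genes differed in direction and timing. PDPN rose in all 3 kinds of defect tissue against sound bone, by 2.14-fold to 2.57-fold. SOST fell in D2, by 2.51-fold, with smaller differences of the same sign at 6 weeks. PHEX was lower in both D2 arrays than in the other 6, without passing the test, and D6, DT6 and C overlapped. FGF23 was high in 1 of the 8 arrays, a C array. Levels are given on the deposited log2 scale and differences as log2 ± SE for 2 arrays against 2. The test was limma's moderated test with Benjamini-Hochberg adjustment over all 15947 genes and a threshold of 0.05. In these bulk samples fewer osteocytes and less of a transcript per osteocyte cannot be told apart.

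**Figure D1:**
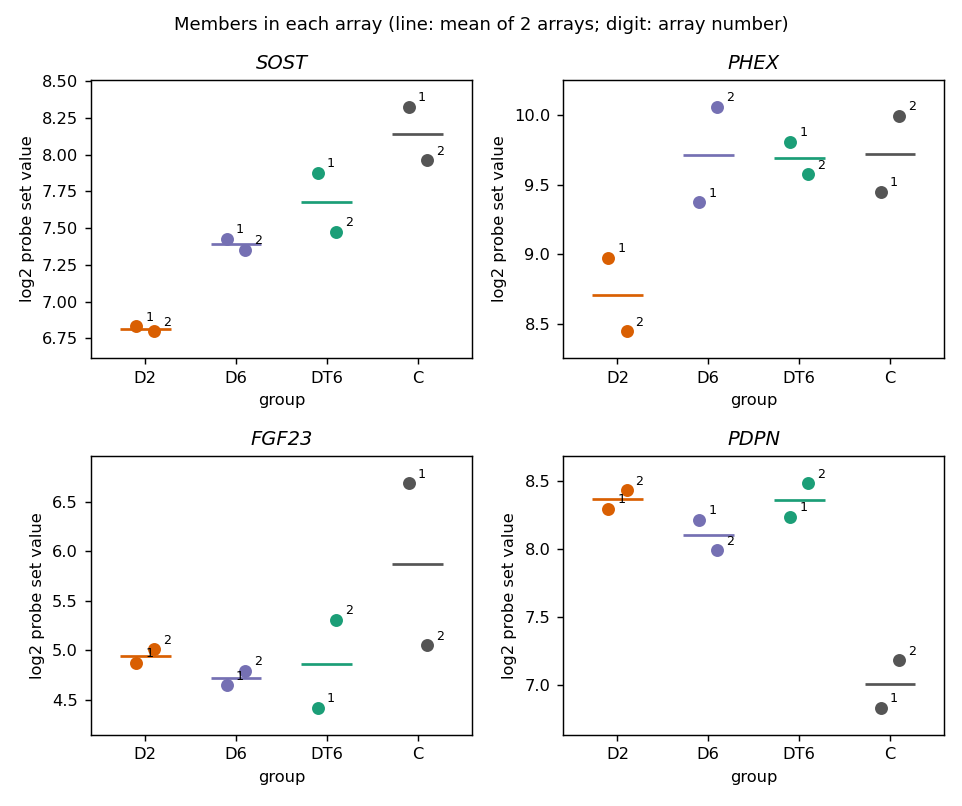
Log2 probe set values of the 4 genes in each of the 8 arrays, by group (points: arrays, labelled with the array number; line: mean of 2 arrays). SOST steps up through D2, D6, DT6 and C, PHEX is lowest in D2, FGF23 is high in C array 1, and PDPN is higher in all 6 defect arrays than in both C arrays.

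Some facts about the whole set of arrays bear on these genes. Replicates correlated across genes with r between 0.9745 in DT6 and 0.9862 in D2. The mean log2 value of 8 airway and gland epithelium genes lay between 8.93 and 9.68 in D2 and DT6 arrays and between 5.05 and 5.62 in D6 and C arrays. Time in D6 against D2, and tooth movement in DT6 against D6, thus cannot be told apart from this difference in airway transcripts. The mean of 11 oral epithelium genes was 8.21 in D2 array 2 and 9.21 in D6 array 1, against 5.29 to 5.72 in the other 6 arrays. As a check of the tissue, the mean of 9 osteoblast genes, among them COL1A1, BGLAP and IBSP, lay between 10.67 and 11.13 in defect arrays and between 10.41 and 10.72 in C arrays, so transcripts of bone-forming cells were read in every sample. None of the 9 passed in D2, D6 or DT6 against C, where 8.4%, 1.76% and 3.04% of all genes did. The list medians were 0.52, 0.44 and 0.165, beside medians over all genes of −0.01, 0.01 and −0.01.

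Sclerostin transcript was lowest at 2 weeks and highest in sound bone. SOST had 6.83 and 6.80 in D2, 7.43 and 7.35 in D6, and 7.88 and 7.48 in DT6, against 8.33 and 7.96 in C. The order of the levels was D2, D6, DT6 and C from lowest to highest, and no 2 groups overlapped. That exact order without overlap was shared by 43 of all 15947 genes (0.27%), and any order of the 4 groups without overlap by 368 (2.31%), as counted after the values had been seen. SOST fell by 1.33 ± 0.18 in D2 against C (95% interval −1.73 to −0.93, adjusted p = 0.00356, limma). In this comparison 2 of the 4 genes passed, SOST and PDPN, where 8.4% of all genes did. By signed difference SOST ranked 96 from the bottom. In D2 against C 56.3% of all genes had groups that did not overlap.

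At 6 weeks the difference of SOST from sound bone was −0.75 ± 0.18 in D6 (95% interval −1.16 to −0.35, adjusted p = 0.0744, limma) and −0.47 ± 0.18 in DT6 (95% interval −0.87 to −0.06, adjusted p = 0.219). Both missed the threshold, although each pair of groups was fully separated. In D6 against C, 48.6% of all genes had groups that did not overlap, and in DT6 against C 41.6%, so separation of 2 arrays from 2 is common here. The D6 difference of SOST passed in 2 of 17 alternative fits. These were the fits with either DT6 array left out of the shared estimate of spread, with the difference itself the same. Without C array 1 the D6 difference was −0.57. Averaged over the 3 defect groups, SOST fell by 0.85 ± 0.14 against C (adjusted p = 0.011), and all 6 defect arrays lay below both C arrays. Without C array 1, the higher of the C arrays, the mean difference was −0.67 and missed the threshold (adjusted p = 0.124).

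Neighbours in the order of SOST levels did not differ past the threshold. SOST was higher in D6 than in D2 by 0.57 ± 0.18 (95% interval 0.17 to 0.98, adjusted p = 0.283, limma) and higher in DT6 than in D2 by 0.86 ± 0.18 (95% interval 0.46 to 1.26, adjusted p = 0.316, unadjusted p = 0.000938). Between DT6 and D6, which differ in tooth movement and in airway transcripts alike, SOST differed by 0.29 ± 0.18 (95% interval −0.11 to 0.69, adjusted p = 0.9998). Both DT6 arrays lay above both D6 arrays, and the interval holds 0.

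The FGF23 probe set lay under the median of its own array in 7 of 8 arrays, and no detection call was used here, so its distance from background is not known. FGF23 had 4.88 and 5.01 in D2, 4.65 and 4.80 in D6, and 4.42 and 5.31 in DT6, against 6.69 and 5.05 in C. C array 1 stood 1.38 above the next highest array, and the other 7 arrays spanned 4.42 to 5.31. C array 1 was the highest array by at least 1 log2 for 10 of all genes (0.0627%), as counted after the values had been seen. For the other 7 arrays the number ran from 0 in D6 array 2 to 53 in D6 array 1 (0.332%), so such an excess was rare in every array.

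FGF23 differed by −0.93 ± 0.47 in D2 (adjusted p = 0.275, limma), by −1.15 ± 0.47 in D6 (adjusted p = 0.262) and by −1.01 ± 0.47 in DT6 (adjusted p = 0.314), each against C. These 3 differences share the same C arrays and rest on 1 of them. Without C array 1 they were −0.11, −0.33 and −0.19, and with C array 1 alone they were −1.75, −1.97 and −1.83, of which the D2 difference then passed (adjusted p = 0.0416). Among the defect groups FGF23 differed by −0.22 ± 0.47 in D6 against D2, −0.08 ± 0.47 in DT6 against D2 and 0.14 ± 0.47 in DT6 against D6. The last of these has a 95% interval of −0.93 to 1.21, the widest of the 4 genes, so only a large change of FGF23 between DT6 and D6 was detectable.

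PHEX values were lowest at 2 weeks. PHEX had 8.97 and 8.44 in D2, 9.37 and 10.06 in D6, and 9.81 and 9.57 in DT6, against 9.45 and 9.996 in C. Both D2 arrays lay below the other 6, a pattern shared by 938 of all genes (5.88%), while D6, DT6 and C overlapped. The difference of PHEX in D2 against C was −1.01 ± 0.28 (2.02-fold, 95% interval −1.64 to −0.39, adjusted p = 0.0576, limma) and missed the threshold. It passed in 4 of 17 alternative fits, with adjusted p between 0.0303 and 0.308. It was −0.75 without D2 array 2, the lower D2 array and the one high in oral epithelium genes (adjusted p = 0.308), and −0.74 without C array 2 (adjusted p = 0.237).

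At 6 weeks the PHEX values of both defect groups overlapped those of sound bone. The difference was −0.01 ± 0.28 in D6 against C (95% interval −0.63 to 0.62, adjusted p = 0.998, limma) and −0.03 ± 0.28 in DT6 against C (95% interval −0.66 to 0.60, adjusted p = 0.971). Against D2, PHEX was higher by 1.01 ± 0.28 in D6 (95% interval 0.38 to 1.63, adjusted p = 0.192) and by 0.98 ± 0.28 in DT6 (95% interval 0.36 to 1.61, adjusted p = 0.502). Neither passed. By signed difference PHEX ranked 71 from the top in D6 against D2 and 55 in DT6 against D2, among 15947 genes. DT6 and D6 differed by −0.03 ± 0.28 (95% interval −0.65 to 0.60), and the D6 arrays lay on either side of both DT6 arrays.

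PDPN moved the other way from SOST. PDPN had 8.30 and 8.43 in D2, 8.22 and 7.99 in D6, and 8.24 and 8.49 in DT6, against 6.83 and 7.18 in C. All 6 defect arrays lay above both C arrays, a separation that 12.8% of all genes shared upward, as 10.5% shared that of SOST downward. PDPN rose by 1.36 ± 0.17 in D2 (2.57-fold, 95% interval 0.98 to 1.74, adjusted p = 0.00254, limma), by 1.10 ± 0.17 in D6 (2.14-fold, adjusted p = 0.0209) and by 1.36 ± 0.17 in DT6 (2.56-fold, adjusted p = 0.00349). PDPN was the only one of the 4 genes to pass in D6 against C, where 1.76% of all genes did, and in DT6 against C, where 3.04% did. Over the 3 defect groups the rise was 1.27 ± 0.14 (adjusted p = 0.00217), and SOST and PDPN were the 2 of 4 genes past the threshold there, against 8.38% of all genes.

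The D6 rise of PDPN depended on single arrays. Its difference was 0.92 without C array 1 (adjusted p = 0.151, limma), 1.27 without C array 2 (adjusted p = 0.0521), and 0.99 without D6 array 1 (adjusted p = 0.136). With D2 array 2 and D6 array 1, the pair high in oral epithelium genes, left out, it was 0.99 as well (adjusted p = 0.184). In D2 and DT6 PDPN passed whichever of the 8 arrays was left out, with adjusted p up to 0.0265 and 0.0401. SOST in D2 also passed whichever array was left out, with adjusted p up to 0.0388.

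The defect groups did not differ in PDPN past the threshold. The order of the levels was D2, DT6, D6 and C from highest to lowest, and D2 and DT6 overlapped. PDPN differed by −0.003 ± 0.17 in DT6 against D2 (95% interval −0.38 to 0.38, limma), by −0.26 ± 0.17 in D6 against D2 (95% interval −0.64 to 0.12) and by 0.26 ± 0.17 in DT6 against D6 (95% interval −0.12 to 0.64).

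**Figure D2:**
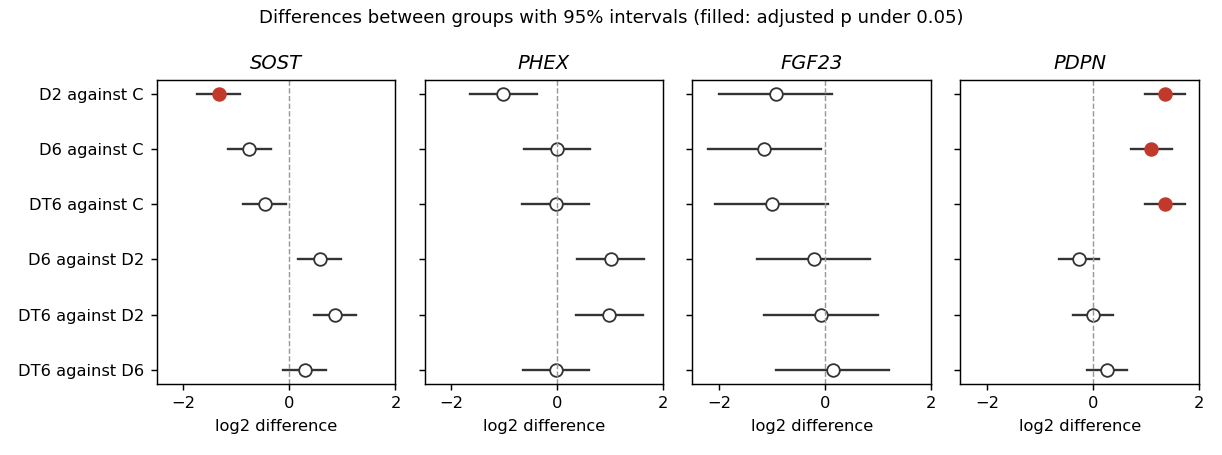
Log2 differences of the 4 genes in 6 comparisons, named group first minus group named second, with 95% intervals from limma (filled red: adjusted p under 0.05 over all genes). SOST passes in D2 against C and PDPN in D2, D6 and DT6 against C, and no comparison between defect groups passes.

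Between defect groups none of the 4 genes passed the threshold in limma. In D6 against D2 0 of 4 passed, where 1.68% of all genes did, and 2 had an unadjusted p under 0.05, SOST and PHEX, as had 7.88% of all genes. In DT6 against D2 0 of 4 passed, where 0% of all genes did, and SOST and PHEX had an unadjusted p under 0.05, as had 6.22% of all genes. In DT6 against D6 0 of 4 passed, where 1.52% of all genes did, and 0 had an unadjusted p under 0.05, against 6.52% of all genes.

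Podoplanin is not made by osteocytes alone. Lymphatic endothelium, activated fibroblasts, basal cells of stratified epithelium and, in inflamed tissue of mice, macrophages also carry it. The mean of 7 macrophage genes lay between 8.48 and 9.30 in defect arrays and between 7.52 and 7.72 in C arrays, higher in the same 6 arrays as PDPN. Of the 7, 4 rose in D2, 5 in D6 and 4 in DT6 against C, where 8.4%, 1.76% and 3.04% of all genes passed. The list medians were 1.06, 1.37 and 1.43, beside medians over all genes of −0.01, 0.01 and −0.01. GPNMB, whose glycoprotein is made by macrophages and by osteoclasts, rose by 2.84 ± 0.18, 2.31 ± 0.18 and 1.72 ± 0.18, and its D6 call ended without C array 1 (adjusted p = 0.0895). CD68, a lysosomal protein of macrophages, rose by 1.06 ± 0.24, 1.60 ± 0.24 and 1.86 ± 0.24. The CD68 calls ended without C array 1 in each comparison (adjusted p = 0.154, 0.157 and 0.0682), without C array 2 in D2 and D6, without either D2 array in D2, and without D6 array 1 in D6. The part of macrophages in the PDPN result was not tested. Osteoblasts, the cells that become embedded, are set beside PDPN as well. Their list mean lay between 10.67 and 11.13 in defect arrays and between 10.41 and 10.72 in C arrays. Of the 9 genes, 2 lay above both C arrays in all 6 defect arrays, IBSP and PTH1R, and 1 below. Over all genes 12.8% and 10.5% did. The part of osteoblasts in the PDPN result was not tested.

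Lists of the other podoplanin-bearing cells were not higher in all 6 defect arrays than in both C arrays. The mean of 6 lymphatic endothelium genes lay between 6.96 and 7.07 in D2, 7.49 and 7.62 in D6, and 7.27 and 7.43 in DT6, against 7.37 and 7.53 in C. The list median was −0.09 in D2, 0.45 in D6 and −0.01 in DT6 against C, and no gene of the list rose past the threshold. CCL21, a chemokine that binds podoplanin, differed by 0.27 ± 0.27 in D2, 0.72 ± 0.27 in D6 (adjusted p = 0.222) and 0.62 ± 0.27 in DT6 (adjusted p = 0.274). LYVE1, a hyaluronan receptor of lymphatic endothelium and some macrophages, differed by 0.17 ± 0.16, 0.51 ± 0.16 (adjusted p = 0.162) and 0.62 ± 0.16 (adjusted p = 0.0918). RELN, which encodes the secreted glycoprotein reelin, fell by 2.28 ± 0.55 in D2 against C (adjusted p = 0.0394), a call that ended without either C array or either D2 array (adjusted p up to 0.189). PROX1, the transcription factor that defines lymphatic endothelium, differed by 0.53 ± 0.28, 0.55 ± 0.28 and 0.14 ± 0.28 in D2, D6 and DT6 against C. LYVE1 and PROX1 were chosen by name after their values had been seen. The part of lymphatic vessels in the PDPN result was not tested.

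The mean of 9 fibroblast genes was between 11.07 and 11.13 in D2, 10.70 and 11.03 in D6, and 10.67 and 10.79 in DT6, against 10.85 and 10.87 in C. In D2 the fibroblast surface genes FAP and THY1 rose, by 0.85 ± 0.18 (adjusted p = 0.0251) and 0.63 ± 0.16 (adjusted p = 0.0419, limma). They were 2 of 9 listed genes, where 8.4% of all genes passed. At 6 weeks no gene of the list passed. The FAP call ended without C array 1 or either D2 array, and the THY1 call without any 1 of the 4 arrays compared (adjusted p up to 0.24). Of the 9 fibroblast genes, THY1 was the 1 above both C arrays in all 6 defect arrays, and POSTN the 1 below. For the mean of the defect groups against C, THY1 was the 1 gene of the list to pass, where 8.38% of all genes did. It rose by 0.54 ± 0.13 (adjusted p = 0.0362, limma) and passed in 3 of 8 fits with 1 array left out. The oral epithelium list was high in D2 array 2 and D6 array 1, whose PDPN values of 8.43 and 8.22 were each the higher of their group. The mean of the airway list lay between 8.93 and 9.68 in D2, at 9.38 in both DT6 arrays and between 5.05 and 5.62 in D6. It was 5.19 and 5.51 in C. D2 and DT6 were also the defect groups with the higher PDPN means, 8.37 and 8.36 against 8.10 in D6. The part of any of these tissues in the PDPN result was not tested.

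**Figure D3:**
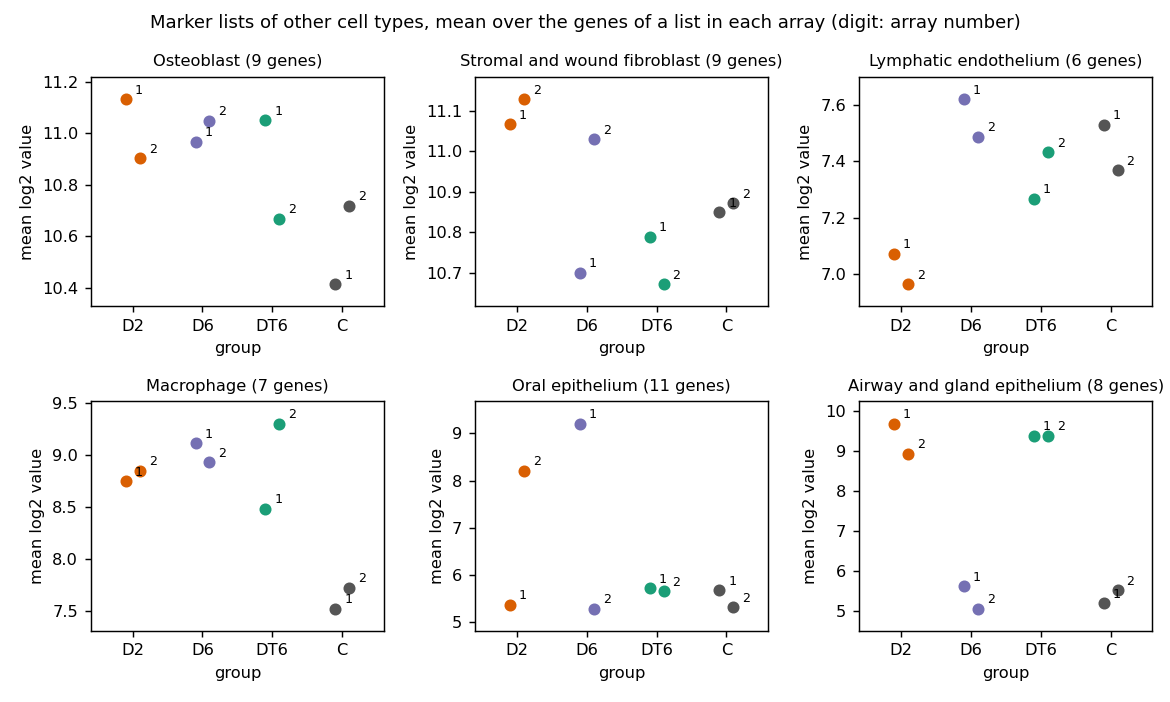
Mean log2 value of the genes of 6 marker lists in each array, by group (points: arrays, labelled with the array number). The macrophage list is higher in all 6 defect arrays than in C, the oral epithelium list is high in D2 array 2 and D6 array 1, and the airway list is high in D2 and DT6.

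Among partners of podoplanin, 1 of 11 genes passed in D2, 0 in D6 and 1 in DT6 against C, where 8.4%, 1.76% and 3.04% of all genes did, so the counts in D2 and D6 are near those shares. The platelet receptor gene CLEC1B, whose product binds podoplanin, rose in D2 and DT6. CLEC1B had 4.87 and 4.81 in D2, 4.34 and 4.01 in D6, and 4.96 and 4.95 in DT6, against 4.02 and 3.89 in C. All of these values lie under the array medians of 6.25 to 6.31, and as for FGF23 the distance from background is not known, which limits what the fold can mean. CLEC1B rose by 0.89 ± 0.18 in D2 (adjusted p = 0.0188, limma) and by 1.00 ± 0.18 in DT6 (adjusted p = 0.022), and differed by 0.22 ± 0.18 in D6. The D2 call ended without any 1 of the 4 arrays compared (adjusted p up to 0.133), and the DT6 call without either C array or DT6 array 2 (adjusted p up to 0.108). D2 and DT6 were also the groups whose airway and gland epithelium mean was high, at 8.93 to 9.68, against 5.05 to 5.62 in D6 and C, and the part of that tissue in the CLEC1B result was not tested. The median over the 11 partners, which include the actin linkers EZR and MSN and the hyaluronan receptor CD44, was 0.27, 0.22 and 0.22 in D2, D6 and DT6 against C.

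Other genes of osteocytes were as uneven as the 4. Of 10 measured genes of that list 2 rose and 1 fell in D2, 1 rose and 1 fell in D6, and 2 rose in DT6, each against C. Over all genes 8.4%, 1.76% and 3.04% passed in these comparisons. The list medians were −0.07, 0.19 and −0.05. MEPE, a phosphoglycoprotein of the bone matrix, had 8.57 and 8.88 in D2, 9.67 and 9.13 in D6, and 10.03 and 10.14 in DT6, against 11.17 and 10.85 in C. Its arrays ran in the same group order as those of SOST, again without overlap. MEPE fell by 2.29 ± 0.21 in D2 (adjusted p = 0.000601) and by 1.61 ± 0.21 in D6 (adjusted p = 0.0125), the second of which ended without C array 1 (adjusted p = 0.132) or C array 2 (adjusted p = 0.0521). In DT6 against C MEPE differed by −0.93 ± 0.21 and narrowly missed the threshold (adjusted p = 0.0501, limma). Cells of teeth make MEPE, DMP1 and PHEX too. The mean of 5 odontoblast and enamel genes lay between 4.74 and 5.18 in D2, 4.42 and 4.54 in D6, and 4.18 and 4.80 in DT6, against 5.34 and 5.81 in C, and of these genes AMELX alone passed, lower in each defect group. The AMELX call ended in D6 without C array 1 (adjusted p = 0.099) or D6 array 1 (adjusted p = 0.0767), and in DT6 without DT6 array 2 (adjusted p = 0.064). The part of tooth-forming cells in the MEPE and SOST results was not tested. CAPG, an actin-capping protein that macrophages also make, rose by 1.02 ± 0.20, 1.09 ± 0.20 and 0.93 ± 0.20 in D2, D6 and DT6. Its calls ended in 2, 4 and 6 of 8 fits with 1 array left out, that without C array 1 among them in each comparison (adjusted p = 0.124, 0.22 and 0.256). HYOU1, a chaperone of the endoplasmic reticulum, rose by 0.97 ± 0.16 in D2 and 0.78 ± 0.16 in DT6, calls that ended in 3 and 7 of those 8 fits, that without C array 1 among them (adjusted p = 0.0782 and 0.224).

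DMP1, a matrix phosphoprotein of osteocytes, split within groups. It had 6.40 and 6.89 in D2, 6.82 and 11.84 in D6, and 12.25 and 6.23 in DT6, against 9.63 and 11.62 in C. The array with the higher DMP1 value was also the one with the higher PHEX value in D6, DT6 and C, and the other one in D2. Across the 8 arrays PHEX correlated with DMP1 with r = 0.74 and with MEPE with r = 0.52, and SOST correlated with MEPE with r = 0.95 and with DMP1 with r = 0.60. These are descriptions over arrays that share 4 groups, and DMP1 and MEPE were chosen for them after the values had been seen. DMP1 differed by −3.98 ± 1.93 in D2, −1.29 ± 1.93 in D6 and −1.39 ± 1.93 in DT6 against C, none past the threshold. The D6 difference was 1.21 without D6 array 1, and the DT6 difference was 1.62 without DT6 array 2.

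The axis of FGF23 and phosphate holds 21 genes including MEPE and DMP1. Of these, 2 fell in D2, 1 fell in D6, and 2 rose and 1 fell in DT6 against C. Over all genes 8.4%, 1.76% and 3.04% passed in these comparisons, so the count in D2 is near its share. The list medians were −0.04, −0.01 and −0.19. SLC20A2, a cellular phosphate importer, had 7.46 and 7.61 in D2, 7.62 and 8.01 in D6, and 7.88 and 7.46 in DT6, against 8.46 and 8.60 in C. It fell by 1.00 ± 0.19 in D2 (adjusted p = 0.0149) and by 0.86 ± 0.19 in DT6 (adjusted p = 0.0451). The first call ended without any 1 of the 4 arrays compared (adjusted p up to 0.119). The second ended without either C array, either D2 array or DT6 array 2 (adjusted p up to 0.18).

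VDR, the vitamin D receptor, rose by 0.87 ± 0.16 in DT6 against C (adjusted p = 0.0286), and FGFR3, a receptor of the FGF family, by 0.77 ± 0.16 (adjusted p = 0.0408). Neither passed in D2 or D6 against C, where VDR differed by 0.59 ± 0.16 and 0.75 ± 0.16 and FGFR3 by 0.40 ± 0.16 and 0.58 ± 0.16. In DT6 against D6 the differences were 0.12 ± 0.16 for VDR and 0.19 ± 0.16 for FGFR3, neither past the threshold. The VDR call ended without either C array, either D2 array or DT6 array 2 (adjusted p up to 0.118), and the FGFR3 call whichever of the 8 arrays was left out (adjusted p up to 0.215). GALNT3 protects FGF23 from cleavage by adding sugars, and FAM20C is a kinase that phosphorylates FGF23. GALNT3, FAM20C, FGFR1 and the FGF23 coreceptor gene KL did not pass in D2, D6 or DT6 against C. They were picked by role among genes that did not pass.

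Another list holds 8 genes, for the coreceptors of sclerostin, its relative SOSTDC1 and the DKK inhibitors with their KREMEN receptors. Of these, 1 fell in D2, 0 passed in D6 and 1 fell in DT6 against C, with medians of −0.12, 0.01 and −0.18. Over all genes 8.4%, 1.76% and 3.04% passed in these comparisons, so 0 or 1 of 8 says nothing particular about the list. The gene that fell was DKK2, a secreted protein that, like sclerostin, binds LRP5 and LRP6. DKK2 had 5.68 and 6.33 in D2, 6.06 and 6.34 in D6, and 5.57 and 4.81 in DT6, against 7.01 and 7.47 in C. All 6 defect arrays lay below both C arrays. DKK2 fell by 1.23 ± 0.30 in D2 (adjusted p = 0.0413). In DT6 it fell by 2.05 ± 0.30 (adjusted p = 0.00933), and in D6 it differed by −1.04 ± 0.30 (adjusted p = 0.131). The D2 call ended without any 1 of the 4 arrays compared (adjusted p up to 0.256), and the DT6 call without either C array (adjusted p up to 0.077). LRP5 differed by −0.18 ± 0.13, 0.02 ± 0.13 and 0.11 ± 0.13 in D2, D6 and DT6 against C, and LRP6 by −0.26 ± 0.13, −0.18 ± 0.13 and −0.27 ± 0.13, none past the threshold.

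Downstream, 0 of 11 Wnt feedback and target genes passed in D2, D6 or DT6 against C, with medians of −0.12, −0.01 and −0.22. With 8.4%, 1.76% and 3.04% of all genes past the threshold there, 0 of 11 says nothing particular about the list. LGR6, a receptor for R-spondins, had the largest difference in DT6, −0.80 ± 0.18 (adjusted p = 0.0557). For the mean of the defect groups against C, 8.38% of all genes passed. LGR6 was the 1 gene of the 11 to pass there, a count near that share, and fell by 0.63 ± 0.15 (adjusted p = 0.0353, limma). That call ended without either C array, either D2 array or D6 array 1 (adjusted p up to 0.253). Upstream, 0 of 12 regulators of SOST passed in D2, D6 or DT6 against C, with medians of −0.21, −0.23 and −0.21. Beside the same shares over all genes, 0 of 12 says nothing particular about the regulators. SIK2, a kinase through which parathyroid hormone lowers SOST in mouse osteocytes, differed by −0.65 ± 0.18 in D2 (adjusted p = 0.0555), −0.65 ± 0.18 in D6 (adjusted p = 0.105) and −0.33 ± 0.18 in DT6. MEF2C, a transcription factor that acts on a distant enhancer of SOST in mice, differed by −0.30 ± 0.15, −0.43 ± 0.15 and −0.28 ± 0.15. In the gene order of the dog assembly UU_Cfam_GSD_1.0 the nearest measured protein-coding genes beside SOST are DUSP3 and MEOX1, and neither passed in any comparison. The same held for MBTPS2 and PTCHD1 beside PHEX, TIGAR and FGF6 beside FGF23, and PRDM2 and LRRC38 beside PDPN.

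**Figure D4:**
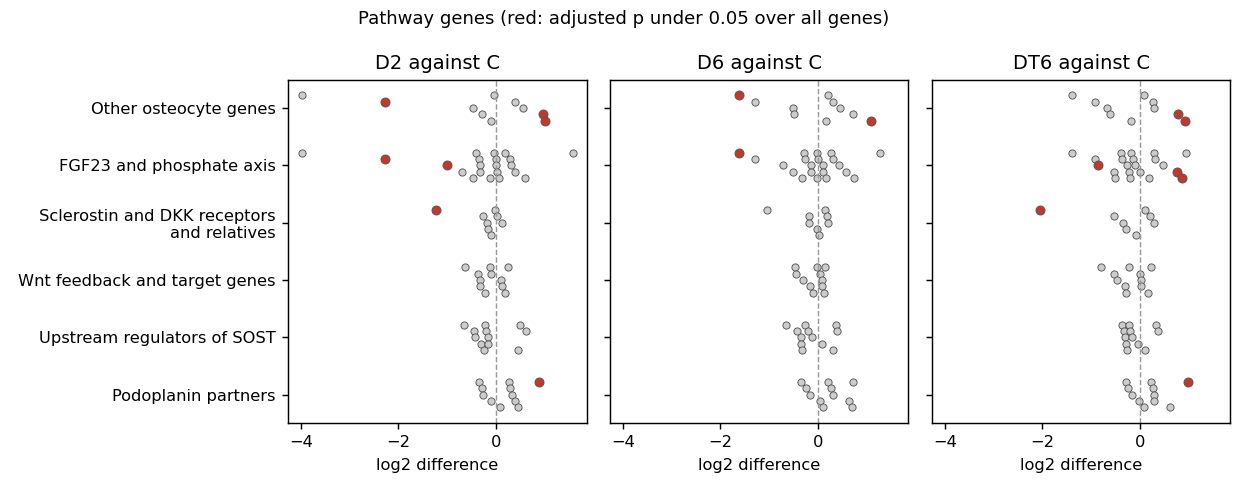
Log2 differences of the genes of the pathway lists in D2, D6 and DT6 against C (points: genes, filled where adjusted p is under 0.05 in limma). Few points are filled, among them DKK2 in D2 and DT6, MEPE in D2 and D6, and CLEC1B in D2 and DT6.

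Over the 8 arrays the named genes whose levels ran most like SOST were CRHR2 with r = 0.994, PAPLN with 0.988, BHMT with 0.979, CEP68 with 0.978 and P2RY6 with 0.976. For PHEX they were NUDT2 with 0.977, EPM2A with 0.965, ZBTB37 with 0.957, WWC2 with 0.957 and MRPL55 with 0.948. For FGF23 they were CREBBP with 0.988, PGPEP1L with 0.971, AMOTL2 with 0.967, RELA with 0.965 and TRAF3IP2 with 0.961. For PDPN they were CCDC92 with 0.994, VCP with 0.986, H2BC18 with 0.985, BZW2 with 0.983 and RPLP0 with 0.983. These are the highest correlations among the named genes of the 15947, with locus identifiers left out. They rest on 4 groups of 2 arrays and describe likeness of pattern alone. The differences of these genes varied in size: CRHR2 stood at −0.56 in D2 against C, and H2BC18 at 1.13. Between the 4 genes themselves, SOST and PHEX correlated with r = 0.65 over 8 arrays and 0.80 over the 6 defect arrays, and SOST and PDPN with −0.77 and −0.26. SOST and FGF23 correlated with 0.51, and with −0.21 once C array 1 was left out.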

How the data were processed

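RNA of 8 dog samples was measured on Affymetrix whole-transcript arrays. The values are on a log2 scale, as deposited in the authors' table of 22708 probe sets. The log base was inferred from their range of 0.91 to 14.5. How probes were summarised and normalized, and on which genome build, is not given in the sources used here. Array medians lay between 6.25 and 6.31, and no array was renormalized. Of the probe sets, 16545 carried 1 gene symbol, 370 several and 5793 none. Where a gene had more than 1 probe set (516 genes), that with the highest mean was kept, leaving 15947 genes. The members, gene lists and tests were chosen with earlier results of these data known.

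limma 3.58.1 in R 4.3.3 was fitted to 4 group means over all 8 arrays, with a variance trend, 4 residual degrees of freedom and two-sided tests, and p-values were adjusted by Benjamini-Hochberg over all genes within each of 7 comparisons. The script was tested on simulated data. With 2 arrays a group, the number of arrays limits the precision. Genes named from a list are, in each comparison, at most 4 that passed, by size of difference, and at most 2 by size if the list had no gene past the threshold. The 5 genes most like each member by Pearson correlation, locus identifiers left out, were also named. Exceptions are stated in the text. Alternatives were median centring, quantile normalization, a filter on dim genes, the mean over probe sets, no trend, robust variance, only the groups compared, a replicate block, and leaving out arrays.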

Additional observations from a re-analysis of the deposited data

How the results depend on the processing

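SOST in D2 and PDPN in D2 and DT6 against C kept direction and passed under all 17 alternatives, and PDPN in D6 under 13. Leaving out genes under the median level, so that fewer were tested and FGF23 had no value, gave 766 genes past the threshold in D2 against C, 131 in DT6 against C, 49 in D6 against D2, 47 in DT6 against D6 and 853 for the mean of the defect groups against C. Robust variance gave 1 gene in DT6 against D2. Fitting only the groups compared gave 147 genes in DT6 against D6, and PHEX in D2 against C passed at −1.01. Median centring gave PHEX −1.07 there, also past the threshold, and PDPN 0.0005 in DT6 against D2, where quantile normalization gave 0.0029. Without D2 array 2 and D6 array 1 the counts were 534 in D2, 49 in D6 and 720 for the mean, each against C. PHEX was then 0.34, PDPN 0.99 and DMP1 1.21 in D6 against C, and PDPN 0.064 in DT6 against D2. Where no cause is named it was not tested.

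With 1 array left out in turn, counts of genes ran from 310 to 1940 in D2 against C, 0 to 683 in D6 against C, 127 to 719 in DT6 against C, 145 to 315 in D6 against D2, 0 to 24 in DT6 against D2, 154 to 318 in DT6 against D6 and 90 to 1863 for the mean. The count of 0 in D6 against C, by limma, came without C array 1, when 1986 genes had an unadjusted p under 0.05. SOST ran from −0.94 to −0.57 in D6 against C and −1.03 to −0.67 for the mean. PHEX ran from −1.29 to −0.74 in D2, −0.35 to 0.34 in D6 and −0.30 to 0.24 in DT6 against C, and −0.37 to 0.32 in DT6 against D6. FGF23 ran from −1.75 to −0.11 in D2 against C, −0.52 to 0.37 in DT6 against D2, −0.30 to 0.59 in DT6 against D6 and −1.85 to −0.21 for the mean. PDPN ran from 0.92 to 1.27 in D6 against C and −0.13 to 0.12 in DT6 against D2. DMP1 ran from −3.80 to 1.21 in D6 and −4.39 to 1.62 in DT6 against C.

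Same-numbered arrays share a number, and the labels do not say whether they share a dog. Their deviations correlated between −0.26 and 0.19, which cannot show whether a dog was shared. A replicate block gave 1048 genes in D2, 188 in D6 and 373 in DT6 against C, and changed no call of the 4 genes (PHEX in D2 against C at −1.01, adjusted p = 0.0791, limma). DKK2 in D2 against C missed the threshold under the block (−1.23, adjusted p = 0.0566).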
